A study of Mus musculus with 8 samples.

Results

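The chemokines and chemokine receptors were followed in the hearts of mice deficient in HDAC3, a histone deacetylase that acts in nuclear co-repressor complexes. Members were chosen by name: every symbol that begins with Ccl, Cxcl, Ccr or Cxcr and a number, together with Cx3cl1, Cx3cr1, Xcl1 and Xcr1. The annotation of the array held 58 such symbols, and 52 of them had a transcript cluster (the probe set that reads a gene) of their own, out of 19933 genes in all. The other 6, Ccl21a, Ccl21b, Ccl21c, Ccl21d, Ccl27a and Ccl27b, lay only on clusters shared by several genes and were not analysed here. The 52 comprised 34 ligands and 18 receptors. No member was left out for low signal, and 21 of the 52 had a mean level under the 25th percentile of all genes (log2 4.50).

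The study compared whole hearts of 4 HDAC3-deficient mice (KO, named MCH3-KO in the design text) and 4 wild type mice (WT). All were male C57BL/6 mice aged 6 weeks, kept on normal chow, and each heart was hybridised to its own Affymetrix Mouse Gene 1.0 ST array. Both groups differed by genotype only, as far as the labels say. The labels do not name the promoter or the cell type in which the gene was deleted, nor what MCH3 stands for.

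Chemokines are small secreted proteins that attract leukocytes along a gradient, and they are grouped as CC, CXC, CX3C or XC by the spacing of their first cysteines. Their receptors are seven-helix membrane proteins that couple to Gi proteins, and many ligands share a receptor. In the heart, Ccl2 and its receptor Ccr2 are known for bringing in blood monocytes, while Cx3cr1 marks many resident macrophages.

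Values are log2 intensities. They compare hearts for one gene and not genes with each other, since each probe set has its own brightness. Differences are KO minus WT with limma's standard error (SE), and a gene passed at an adjusted p under 0.05, Benjamini-Hochberg over all 19933 genes. The arrays were alike in brightness, with median intensities of 54.1 to 56.5, and correlations between hearts lay between 0.9885 and 0.9975. Hdac3, the targeted gene, read 8.59, 8.59, 8.59 and 8.50 in the KO hearts, against 10.14, 10.04, 10.20 and 10.04 in the WT hearts. It fell by 1.54 (SE 0.06, adjusted p = 9.99e-08), to 34.4% of the WT level, so the labels and the targeted gene matched on all 8 arrays.

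In the KO hearts 15 of the 52 members rose and 0 fell, while 37 did not pass. Among all genes 17.1% passed in either direction, 7.63% higher and 9.52% lower. The leading members were the Ccr1 ligands Ccl6 and Ccl9, which rose 3.57-fold and 2.85-fold, followed by Ccl3, Ccl7, Ccl24 and Cxcl16. Of the 34 ligands 12 rose, and of the 18 receptors 3 did. The median difference over the 52 members was 0.12, against -0.00066 over all genes, and 41 of the 52 were above 0. At 1.5-fold or more 7 members had risen, against 1.81% of all genes, and at 2-fold or more 2 members had, against 0.627% of all genes. In 13 of the 52 members, all among the 15, every KO heart lay above every WT heart, which held for 9.45% of all genes. Every KO heart lay below every WT heart for 13% of all genes and for 1 member, Cxcr5, which did not pass. In whole hearts, more cells of a type and more RNA per cell cannot be told apart.

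**Figure D1:**
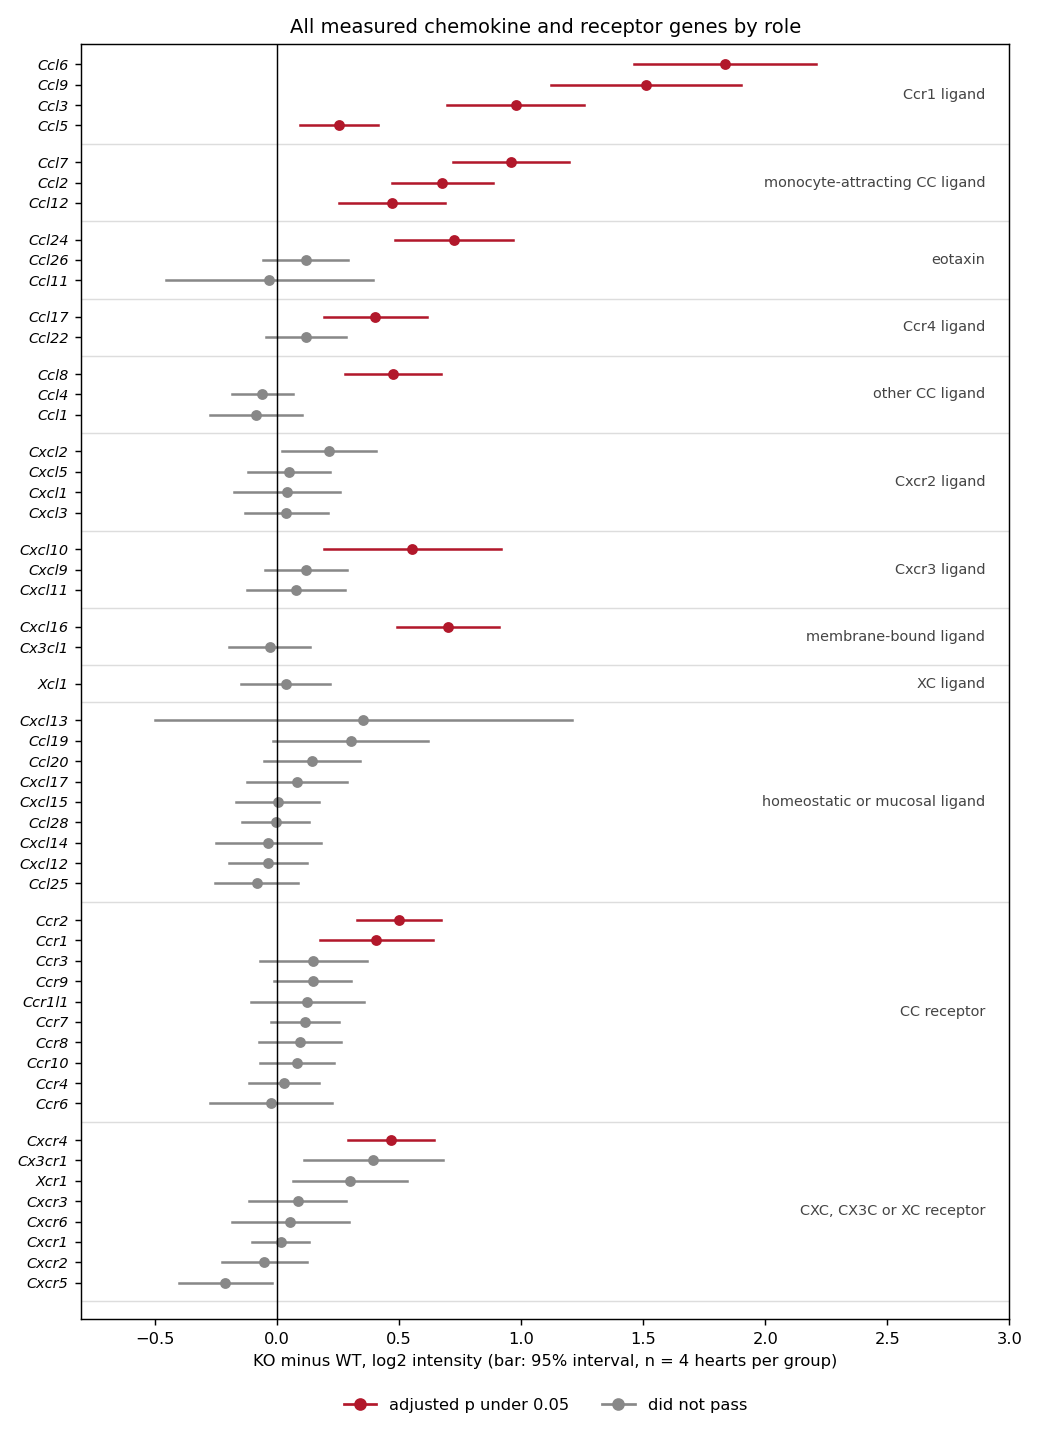
Differences in log2 intensity, KO minus WT, for the 52 chemokine and receptor genes (points, with 95% intervals as bars), arranged by role. The 15 members that passed all lie to the right of 0, 7 of them ligands of Ccr1 or Ccr2, while none of the ligands of Cxcr2 or the homeostatic ligands passed.

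Macrophage markers were higher in the same hearts. All 16 of 16 macrophage markers rose, by a median of 1.32, among them Adgre1 (F4/80) by 1.54, Cd68 by 1.46, Lyz2 by 1.41 and Csf1r by 1.31. Their summed intensity was 9233 to 12212 in the KO hearts and 4096 to 4592 in the WT hearts, with no overlap. Only Ccl6 and Ccl9 among the 15 members exceeded that median, and 0 of the 16 markers rose as far as Ccl6. No neutrophil marker passed among 9, with a summed intensity of 182 to 193 in the KO hearts and 172 to 184 in the WT hearts, and 5 of the 9 read under the 25th percentile of all genes. The part of macrophages in the differences of the members was not tested. Of 6 cardiomyocyte markers 1 fell, Ryr2, the calcium release channel, which fell by 0.53, and their summed intensity was 49002 to 50406 in the KO hearts and 52712 to 52864 in the WT hearts.

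**Figure D2:**
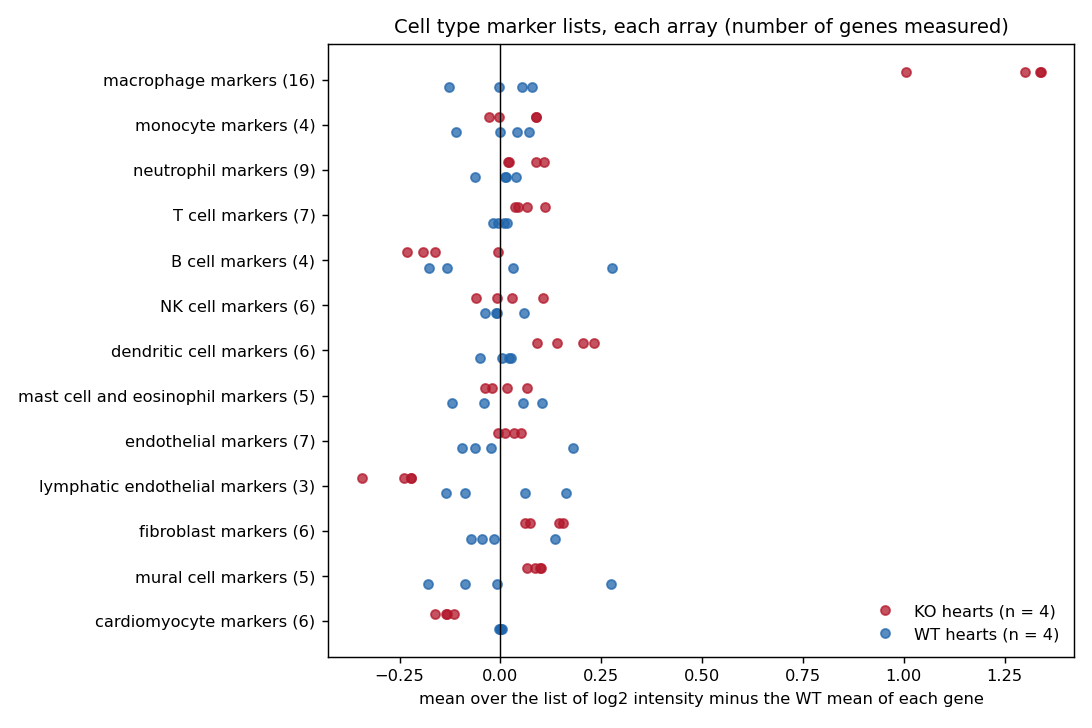
Mean over each list of cell type markers of the log2 intensity minus the WT mean of each gene, 1 point per heart, with KO points drawn above WT points. The KO hearts stand at 1.01 to 1.34 for the 16 macrophage markers, and the other lists stay much nearer to 0. For the 3 lymphatic endothelial markers they stand at -0.34 to -0.22, and 1 of these, Prox1, fell by 0.78 (limma adjusted p = 0.000649).

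Ccl6, Ccl9, Ccl3 and Ccl5 all signal through Ccr1, and all 4 rose, with a median difference of 1.25. Ccl6 and Ccl9 are rodent chemokines that macrophages make and that attract monocytes and macrophages. Ccl6 read 9.01, 9.13, 8.89 and 8.57 in the KO hearts, against 6.84, 6.72, 7.50 and 7.18 in the WT hearts. The dimmest KO heart stood more than 1 log2 unit above the brightest WT heart. The mean was 8.90 ± 0.24 in KO and 7.06 ± 0.35 in WT (SD, n = 4 each), a rise of 1.84 (SE 0.17, limma adjusted p = 3.76e-05). Ccl9 read 8.17, 8.18, 8.16 and 7.40 in the KO hearts, against 6.18, 6.42, 6.74 and 6.53 in the WT hearts. KO replicate 4 was lower than its 3 nearly equal fellows, yet still above all WT hearts. Ccl9 rose by 1.51 (SE 0.18, limma adjusted p = 0.000195). The same heart was the lowest of the 4 KO hearts in the macrophage markers too, at 1.01 above the WT mean, against 1.30 to 1.34 in the others.

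Ccl3, which inflammatory macrophages release and which also binds other CC receptors, read 5.59, 5.80, 5.50 and 5.98 in the KO hearts, against 4.46, 4.79, 4.69 and 5.01 in the WT hearts. The groups did not overlap, and it rose 1.97-fold (0.98 on the log2 scale, SE 0.13, limma adjusted p = 0.000392). Ccl5, which T cells and macrophages release, read 6.75, 6.79, 6.52 and 6.66 in the KO hearts, against 6.33, 6.54, 6.45 and 6.38 in the WT hearts. One KO heart lay just below the highest WT heart, so these groups overlapped. Ccl5 rose by 0.25 (SE 0.07, limma adjusted p = 0.0333), the smallest rise of the 15. That call depended on single hearts: its adjusted p was 0.100 without KO replicate 1, 0.0993 without KO replicate 2 and 0.0578 without KO replicate 4. Leaving out WT replicate 1, 3 or 4 gave 0.0927, 0.0587 or 0.0805.

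All 3 ligands of Ccr2 rose, with a median of 0.68. These are the monocyte chemoattractants Ccl2, Ccl7 and Ccl12, of which Ccl12 is found in mice. Ccl7 read 7.50, 7.54, 7.05 and 7.50 in the KO hearts, against 6.54, 6.49, 6.27 and 6.45 in the WT hearts, and rose by 0.96 (SE 0.11, limma adjusted p = 0.000161). Ccl2 read 7.17, 7.09, 6.83 and 7.27 in the KO hearts, against 6.45, 6.25, 6.43 and 6.51 in the WT hearts, and rose by 0.68 (SE 0.09, limma adjusted p = 0.000605). In both genes the KO heart labelled replicate 3 was the lowest of its group, and no KO heart reached down to a WT heart. Ccl12 read 5.15, 4.96, 4.62 and 4.84 in the KO hearts, against 4.46, 4.44, 4.33 and 4.45 in the WT hearts. Its WT hearts were tightly grouped (SD 0.06, against 0.22 in KO), but all read under the 25th percentile of all genes (log2 4.50). Ccl12 rose by 0.47 (SE 0.10, limma adjusted p = 0.00703).

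Ccl8, which in mice acts through Ccr8, was dim, at 4.39, 4.18, 4.20 and 4.11 in the KO hearts and 3.71, 3.56, 3.76 and 3.95 in the WT hearts. Its groups did not overlap, and it rose by 0.47 (SE 0.09, limma adjusted p = 0.00384), although its mean was under the 25th percentile of all genes. Ccr8 itself differed by 0.10 and did not pass (limma adjusted p = 0.478). Ccl4, close kin of Ccl3, read 4.87 to 5.06 in the KO hearts and 4.96 to 5.08 in the WT hearts. Its difference was -0.06 with a 95% interval of -0.18 to 0.07 (limma adjusted p = 0.578), so a rise of the size seen in Ccl3 lay outside the interval. Ccl1, a Ccr8 ligand of activated T cells, differed by -0.08 (interval -0.27 to 0.10).

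**Figure D3:**
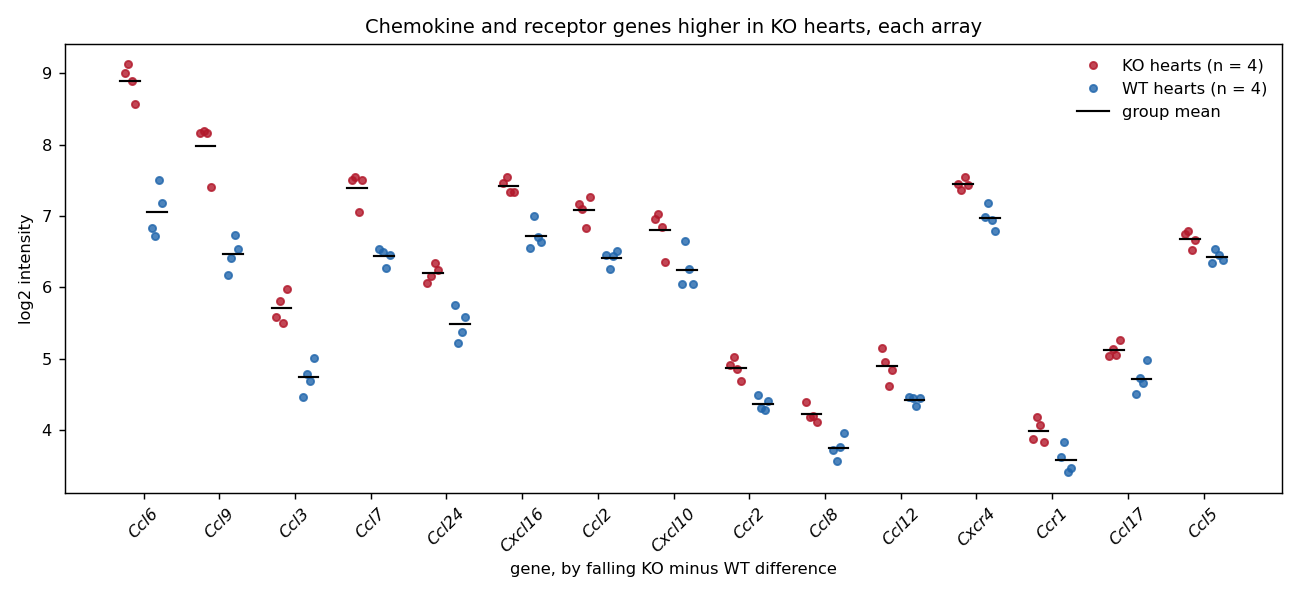
Log2 intensity of the 15 members that rose, per heart, with KO hearts to the left of WT hearts for each gene and the group mean as a line. KO and WT points are apart for all but Ccl5 and Cxcl10, though those of Ccr1 meet at 3.83. The lowest KO point of Ccl9 (7.40) is a single heart below its 3 fellows (8.16 to 8.18).

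Most of these CC ligands lie side by side on chromosome 11. In RefSeq gene order, Ccl2, Ccl7, Ccl11, Ccl12, Ccl8 and Ccl1 form one run, in which 4 of 6 rose. Ccl5, Ccl9, Ccl6, Ccl3 and Ccl4 form another, in which 4 of 5 rose. Together 8 of these 11 genes rose, against 7 of the 41 other members (17.1%) and 7.63% of all genes. These 8 are the Ccr1 and Ccr2 ligands given above and Ccl8, and an effect of position was not tested. Not every neighbour within a run passed: Ccl11, Ccl1 and Ccl4 did not. The interval of Ccl11 was broad, at -0.45 to 0.39. Ccl11 and Ccl1 stood at -0.03 and -0.08 beside Ccl7 at 0.96 and Ccl8 at 0.47, and Ccl4 stood at -0.06 beside Ccl3 at 0.98.

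**Figure D4:**
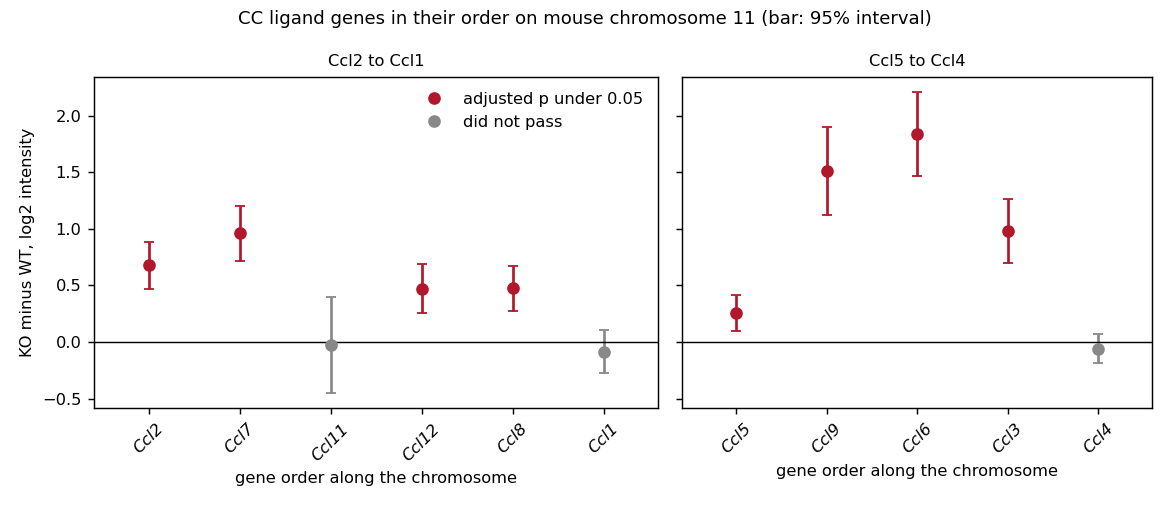
Difference in log2 intensity (KO minus WT, with 95% intervals) of the chemokine genes of chromosome 11, in the order in which they lie in RefSeq and not to scale. Ccl9 and Ccl6 are the highest points of the right-hand run at 1.51 and 1.84, and Ccl11, Ccl1 and Ccl4 lie near 0 within the runs.

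The promoters of 5 of these risen neighbours are shown because they let the genes be read side by side. Each window runs from 250 bases before the start of the gene to 50 bases after it, 5′ to 3′ on the strand of the gene, from RefSeq (GRCm38.p6). The windows are chr11:83593038-83593337 (minus strand) for Ccl6, chr11:83578587-83578886 (minus) for Ccl9 and chr11:83649329-83649628 (minus) for Ccl3. Those of Ccl12 and Ccl8 are chr11:82101595-82101894 (plus) and chr11:82114935-82115234 (plus). Capitals mark matches to any of 6 motifs: an NF-kappaB site, PU.1 (GAGGAA), C/EBP (TTGCNNAA), AP-1 (TGANTCA) and the interferon-stimulated response element, each on either strand, and a TATA box (TATAAA) on the strand of the gene.
Ccl6: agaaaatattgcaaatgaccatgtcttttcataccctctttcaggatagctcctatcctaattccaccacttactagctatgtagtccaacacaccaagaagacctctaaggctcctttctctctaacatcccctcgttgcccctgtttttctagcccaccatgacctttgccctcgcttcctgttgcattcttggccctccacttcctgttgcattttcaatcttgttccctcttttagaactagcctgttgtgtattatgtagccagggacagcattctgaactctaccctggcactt
Ccl9: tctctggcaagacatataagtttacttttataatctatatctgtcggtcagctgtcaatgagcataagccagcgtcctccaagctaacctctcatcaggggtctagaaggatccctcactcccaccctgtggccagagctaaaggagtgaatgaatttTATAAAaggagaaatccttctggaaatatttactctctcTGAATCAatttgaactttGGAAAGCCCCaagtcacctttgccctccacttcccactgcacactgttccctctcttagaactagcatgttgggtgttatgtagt
Ccl3: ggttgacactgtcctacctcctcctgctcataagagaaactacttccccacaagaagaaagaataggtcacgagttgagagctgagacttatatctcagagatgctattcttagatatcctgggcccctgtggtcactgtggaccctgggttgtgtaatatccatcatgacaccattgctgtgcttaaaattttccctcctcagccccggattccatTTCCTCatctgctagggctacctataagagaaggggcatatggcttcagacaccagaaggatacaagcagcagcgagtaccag
Ccl12: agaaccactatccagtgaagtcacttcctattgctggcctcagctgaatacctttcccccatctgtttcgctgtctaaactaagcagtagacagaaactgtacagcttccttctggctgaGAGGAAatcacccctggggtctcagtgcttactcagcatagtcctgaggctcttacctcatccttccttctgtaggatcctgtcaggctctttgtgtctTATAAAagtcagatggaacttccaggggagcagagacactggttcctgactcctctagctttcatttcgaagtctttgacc
Ccl8: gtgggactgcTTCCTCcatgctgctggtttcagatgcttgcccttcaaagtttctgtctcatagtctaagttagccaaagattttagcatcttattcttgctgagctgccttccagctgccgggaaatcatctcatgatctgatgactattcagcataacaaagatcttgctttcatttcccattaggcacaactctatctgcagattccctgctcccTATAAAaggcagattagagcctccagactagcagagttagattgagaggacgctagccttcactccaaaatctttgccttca

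The Ccl6 window held none of the 6 motifs in the letters searched, and variants of those letters were not searched. That of Ccl9 held an NF-kappaB match 35 bases, an AP-1 match 53 bases and a TATA match 92 bases before the start. In Ccl3 a PU.1 match lay 33 bases before the start. Ccl12 and Ccl8 each had a TATA match, 31 and 32 bases before the start, and a PU.1 match, 130 and 240 bases before it. No matches overlapped each other in these windows. The Ccl6 and Ccl9 windows shared gccctccacttcc, their longest common run at 13 bases, beginning 55 bases before the start of Ccl6 and 14 bases before that of Ccl9.

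A window was found for 38 members, 10 of them among the 15 that rose. PU.1 is the macrophage and B cell factor encoded by Spi1, and its motif was in 5 of the 10 (Ccl12, Ccl17, Ccl3, Ccl8 and Ccr1), in 7 of the 28 others and in 28.3% of all 27025 genes with a window. NF-kappaB, the factor of inflammatory signalling, matched in 3 of the 10 (Ccl9, Ccr1 and Cxcl10), in 6 of the 28 and in 8.18% of all. The TATA box was in 4 of the 10, in 5 of the 28 and in 8.88% of all. AP-1 matched in 2 of the 10 and 5 of the 28, against 7.93% of all. The interferon element was in 1 of the 10, Cxcl10, in 2 of the 28 and in 3.49% of all, and C/EBP in 0 and 1, against 10.8% of all. A match describes the letters of the window and was not tested for binding.

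Among the eotaxins, ligands of Ccr3 that attract eosinophils, 1 of 3 rose. Ccl24 read 6.06, 6.16, 6.35 and 6.24 in the KO hearts, against 5.75, 5.21, 5.37 and 5.58 in the WT hearts. The groups did not overlap, and Ccl24 rose by 0.73 (SE 0.11, limma adjusted p = 0.00104). Ccl11 read 6.35, 6.20, 6.48 and 6.37 in the KO hearts, against 6.89, 5.75, 6.55 and 6.33 in the WT hearts, a wider spread in WT. Its difference of -0.03 had a broad interval, -0.45 to 0.39, and Ccl26 differed by 0.12 (-0.06 to 0.29). Ccr3 differed by 0.15 (-0.07 to 0.37, limma adjusted p = 0.384), and 0 of 5 mast cell and eosinophil markers passed.

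Ccl17 and Ccl22 are the ligands of Ccr4, made mainly by dendritic cells and macrophages. Ccl17 read 5.04, 5.14, 5.05 and 5.26 in the KO hearts, against 4.50, 4.73, 4.66 and 4.98 in the WT hearts, and rose by 0.40 (SE 0.10, limma adjusted p = 0.0138). Its groups lay close but did not overlap. Ccl22 differed by 0.12 (interval -0.04 to 0.28) and Ccr4 by 0.03 (-0.12 to 0.17), and neither passed. Of 6 dendritic cell markers 2 rose, Cd209a by 0.49 and Itgax by 0.32. Their summed intensity was 252 to 287 in the KO hearts and 235 to 247 in the WT hearts, and the part of those cells was not tested.

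Of 13 CXC ligands 2 rose, with a median of 0.08 over all 13, and of 19 CC ligands 10 rose, with a median of 0.30, beside 7.63% of all genes. The difference between the CC and CXC ligands was not tested. Cxcl16, a membrane-bound ligand of Cxcr6 that also takes up oxidised lipoprotein, read 7.46, 7.55, 7.34 and 7.34 in the KO hearts, against 6.55, 6.99, 6.70 and 6.63 in the WT hearts. The groups did not overlap, and Cxcl16 rose by 0.70 (SE 0.09, limma adjusted p = 0.000481). Its receptor Cxcr6 was dim, at means of 3.52 and 3.46 in KO and WT, and differed by 0.06 (interval -0.18 to 0.30). Cx3cl1, the other membrane-bound chemokine, read 6.52, 6.56, 6.41 and 6.48 in the KO hearts, against 6.55, 6.67, 6.32 and 6.55 in the WT hearts. It differed by -0.03 (-0.20 to 0.14), and the groups overlapped throughout.

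Cxcl9, Cxcl10 and Cxcl11 are interferon-induced ligands of Cxcr3, which T cells and natural killer cells carry. Cxcl10 read 6.96, 7.03, 6.85 and 6.36 in the KO hearts, against 6.04, 6.65, 6.25 and 6.04 in the WT hearts. KO replicate 4 lay below WT replicate 2, so the groups overlapped. Cxcl10 rose by 0.55 (SE 0.16, limma adjusted p = 0.0404), but its adjusted p was 0.111, 0.113 and 0.0912 without KO replicates 1, 2 and 3, and 0.108, 0.0771 and 0.101 without WT replicates 1, 3 and 4. Cxcl9 read 8.22, 8.29, 8.14 and 8.28 in the KO hearts, against 8.27, 8.21, 7.96 and 8.02 in the WT hearts, a difference of 0.12 (interval -0.05 to 0.29) that did not pass. Cxcl11 differed by 0.08 and Cxcr3 by 0.09, and neither passed. Of 7 T cell markers Cd4 rose by 0.42 and Cd28 fell by 0.22, and 0 of 6 natural killer cell markers and 0 of 4 B cell markers passed.

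The neutrophil-attracting ligands of Cxcr2 did not pass in any of 4 cases. Cxcl1, Cxcl3 and Cxcl5 differed by 0.04, 0.04 and 0.05. Cxcl2 had the largest difference of the 4 at 0.21 (interval 0.02 to 0.41, limma adjusted p = 0.128). Their receptor Cxcr2 differed by -0.05 (-0.22 to 0.12), and Cxcr1 by 0.02 (-0.10 to 0.13).

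Homeostatic and mucosal ligands, several of which guide lymphocytes in resting tissue, gave 0 of 9. Cxcl12, the stromal ligand of Cxcr4, read 8.61, 8.66, 8.59 and 8.60 in the KO hearts, against 8.53, 8.86, 8.59 and 8.63 in the WT hearts. The KO hearts were nearly equal within the WT range, with a difference of -0.04 (interval -0.20 to 0.12). Ccl19, a ligand of Ccr7, read 8.38, 8.43, 8.56 and 8.48 in the KO hearts, against 7.99, 7.75, 8.51 and 8.39 in the WT hearts, with a difference of 0.30 (-0.01 to 0.62, limma adjusted p = 0.199). Its 4 clusters disagreed: the brightest gave that 0.30 and the others -0.34, 0.13 and -0.18, so no direction can be given. Cxcl13, the B cell attractant and ligand of Cxcr5, was the most scattered member. It read 6.03, 6.51, 4.73 and 4.81 in the KO hearts, against 5.70, 4.67, 5.45 and 4.85 in the WT hearts, and its difference of 0.35 had an interval of -0.50 to 1.21. Of the rest of this class, Ccl20 differed by 0.14, Cxcl17 by 0.08, Cxcl14 by -0.03 and Ccl25 by -0.08, and Ccl28 and Cxcl15 by under 0.01 in size. The 2 clusters of Ccl25 disagreed in sign, the other giving 0.19. The 37 members that did not pass had a median of 0.06, with a range of -0.21 to 0.40 and 26 above 0.

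The 3 receptors that rose were Ccr2, Ccr1 and Cxcr4. Ccr2, which carries inflammatory monocytes towards Ccl2, Ccl7 and Ccl12, read 4.91, 5.02, 4.85 and 4.69 in the KO hearts, against 4.48, 4.31, 4.27 and 4.40 in the WT hearts. The groups did not overlap, and Ccr2 rose by 0.50 (SE 0.08, limma adjusted p = 0.00125) alongside all 3 of its ligands. Its WT hearts all read under the 25th percentile of all genes (log2 4.50). Among 4 monocyte markers 1 rose, Spn by 0.28, and the median of the 4 was 0.08. Ccr1 read 3.87, 4.18, 4.07 and 3.83 in the KO hearts, against 3.61, 3.83, 3.40 and 3.47 in the WT hearts, under the 25th percentile of all genes. It rose by 0.41 (SE 0.10, limma adjusted p = 0.0213), the lowest KO heart being level with the highest WT heart to 2 decimals. Its adjusted p was 0.0635 without KO replicate 2, 0.0603 without KO replicate 3, and 0.0587 and 0.0588 when WT replicate 3 or 4 was left out.

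Cxcr4, the widely expressed receptor of Cxcl12, read 7.45, 7.36, 7.54 and 7.43 in the KO hearts, against 6.98, 7.18, 6.95 and 6.79 in the WT hearts. It rose by 0.47 (SE 0.08, limma adjusted p = 0.00226) with no overlap, beside a ligand that did not pass. Cx3cr1, the fractalkine receptor of macrophages, read 7.06, 6.86, 6.88 and 7.09 in the KO hearts, against 6.78, 6.88, 6.31 and 6.33 in the WT hearts. WT replicates 1 and 2 lay near the KO hearts, and the difference of 0.40 (interval 0.11 to 0.68) did not pass (limma adjusted p = 0.0603). Without WT replicate 1 its adjusted p was 0.0472, and without WT replicate 2 it was 0.0176. Over 17 alternatives it ranged from 0.0137 to 0.146 and passed in 7.

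Xcr1, the receptor of cross-presenting dendritic cells, read 4.81, 4.53, 4.45 and 4.52 in the KO hearts, against 4.13, 4.54, 4.13 and 4.32 in the WT hearts. The difference was 0.30 (limma adjusted p = 0.0819), and 0.39 without WT replicate 2 (adjusted p = 0.0198), while its ligand Xcl1 differed by 0.04. Cxcr5, the follicular homing receptor of B cells, was the lone member whose KO hearts all lay below the WT hearts. It read 3.61, 3.33, 3.66 and 3.66 in the KO hearts, against 3.74, 3.74, 3.68 and 3.94 in the WT hearts, and its difference of -0.21 did not pass (limma adjusted p = 0.133). Ccr7, which leads dendritic cells and T cells to lymph nodes, differed by 0.12 (interval -0.03 to 0.26). Ccr6, Ccr9, Ccr10 and Ccr1l1 differed by -0.02 to 0.15, and none of them passed.

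From a list of 38 genes that act downstream of chemokine receptors, 35 were measured. Of these 15 rose and 1 fell, with a median of 0.18, beside 7.63% and 9.52% of all genes. The other 19 did not pass, among them Itgal at 0.07, Plcb2 at -0.02 and Fgr at 0.0013. The leading ones of the list serve leukocyte migration. Vav1, a signalling protein of blood cells, averaged 6.05 ± 0.10 in KO and 5.03 ± 0.13 in WT (SD, n = 4 each) and rose by 1.01 (limma adjusted p = 1.16e-05). Itgb2, the beta-2 integrin chain that chemokines activate, averaged 7.13 ± 0.17 in KO and 6.04 ± 0.12 in WT and rose by 1.09 (limma adjusted p = 2.16e-05). Prkcb, a protein kinase C, and Dock2, the Rac activator needed for leukocyte chemotaxis, rose by 1.14 and 1.10. Tiam1, another Rac activator, fell by 0.31 (limma adjusted p = 0.0192), and without WT replicate 4 the list held 0 falls. These leading genes are expressed mainly in leukocytes, and the macrophage markers given above moved with them. Their part was not tested.

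Of 32 transcription factors, receptors and cytokines known to act on chemokine genes, 11 rose and 1 fell, with a median of 0.13. The shares over all genes were 7.63% and 9.52%. Spi1, which encodes PU.1, averaged 7.66 ± 0.06 in KO and 6.53 ± 0.19 in WT and rose by 1.13 (limma adjusted p = 1.4e-05). Irf5 rose by 0.80 (3.18e-05), Irf8 by 0.48 (0.000215) and Tnfrsf1b, a receptor of tumour necrosis factor, by 0.63 (0.00033), with limma's adjusted p in parentheses. The gene that fell was Ifngr2, a chain of the interferon gamma receptor, by 0.19. The other 20 did not pass, among them the NF-kappaB subunit genes Rela, Relb, Rel and Nfkb2, at -0.10 to 0.11. Of the cytokines, Tnf rose by 0.22 (limma adjusted p = 0.0364), while Il1b, Il6 and Ifng did not pass. The part of macrophages, whose markers rose in the same hearts, was not tested.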

How the data were processed

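Total RNA from 4 KO and 4 WT hearts was measured on 8 arrays, from separate mice per the titles ("biological rep"). The authors deposited 1 intensity per transcript cluster and array, on a linear scale as the values show. Partek and RMA were used, per the submitters' processing notes, which give no version. The genome build was not stated in those notes or labels, and without scanner files (not used here) neither detection calls nor batches could be examined. Of 27541 clusters, 21631 carried 1 gene symbol, 1317 several and 4593 none in the platform annotation, and 21544 were found in RefSeq by Entrez ID. For 951 of 19933 genes with several clusters, the one brightest on average was used.

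The log2 of each deposited intensity was taken with no further normalisation. Groups were compared by limma's moderated linear model (version 3.58.1 under R 4.3.3) with genotype as the only term and two-sided tests. Benjamini-Hochberg adjustment ran over all genes, with a threshold of 0.05. No genes were filtered. The fit was tested on simulated data before use. Figures used matplotlib 3.10.9 in Python 3.11.15. The members and gene lists were chosen with earlier results of these data known. Every member could be named, the called ones with every array and the 5 brightest uncalled ones, and from each other list up to 4 genes with the smallest p. The values per array of Cxcr5, Xcr1, Cxcl13 and Ccl11, and Tiam1, Ifngr2, Ccrl2, Cklf, Ackr1, Ackr2 and Ackr4, were added after values were seen. So were Rela, Relb, Rel, Nfkb2, Tnf, Il1b, Il6, Ifng, Itgal, Plcb2 and Fgr. Alternatives were another variance model, scalings, dim filters, cluster rules, array weights, a fold threshold, a replicate block and leaving out each array. Replicate numbers did not pair the hearts: deviations of hearts with the same number correlated at -0.04 to 0.09.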

Additional observations from a re-analysis of the deposited data

Results flagged for a closer look

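Values are log2 intensities. In 9 of the 106 groups of 4 hearts examined for an outlying heart, 1 heart stood apart from its fellows, with a gap past Dixon's 95% critical value; chance alone marks about 1 in 20 groups. Ccl9 read 7.40 in KO replicate 4, against 8.16 to 8.18 in the other KO hearts. The macrophage marker mean was also lowest in that heart among the KO hearts, at 1.01 above the WT mean, and its part was not tested. The same heart gave 8.50 for Hdac3, against 8.59 in the others, and 3.52 for Cxcr2, against 3.77 to 3.80. KO replicate 3 read 7.05 for Ccl7, against 7.50 to 7.54, and 4.94 for Ccl1, against 5.04 to 5.06. KO replicate 2 read 4.04 for Ccr4, against 4.23 to 4.25, and 3.33 for Cxcr5, against 3.61 to 3.66. Among the WT hearts, replicate 3 read 4.33 for Ccl12, against 4.44 to 4.46, and replicate 2 read 4.27 for Ccr6, against 4.43 to 4.45.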

How the results depend on the processing

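The count of members that rose was 15, and 12 to 17 when 1 heart was left out. It was 9 with genes under the median level left out, where fewer members were tested, and 7 with a rise of at least 1.5-fold asked for. It stayed at 15 with the replicate block, which changed no other call, and 2 of 8 hearts correlated best with a heart of their own number. The count of members that fell was 0 in every alternative. Signalling genes that rose numbered 14 to 21 when 1 heart was left out, and those that fell 0 to 1. Hdac3 kept its call throughout. For the 15 members, 230 of 246 alternatives kept the call, and 12 of the 15 kept it in all; Ccl5, Ccr1 and Cxcl10 lost it without single hearts. Cx3cr1 passed in 7 of 17 alternatives and Xcr1 in 2.

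Signs turned for 17 members, all without a call. Averaging clusters gave -0.022 for Ccl19 and 0.055 for Ccl25. Array weights gave 0.020 for Ccl28, 0.015 for Cx3cl1, -0.010 for Cxcl15, -0.0051 for Cxcr1, 0.012 for Cxcr2 and -0.0070 for Cxcr6. Quantile normalisation gave -0.0056 for Cxcl15 and -0.0074 for Cxcr1, and median centring -0.017 and -0.0047. With 1 heart left out, the difference ran from -0.24 to 0.14 for Ccl11, -0.036 to 0.041 for Ccl28, -0.0062 to 0.079 for Ccr4 and -0.11 to 0.065 for Ccr6. It ran from -0.096 to 0.019 for Cx3cl1, -0.039 to 0.12 for Cxcl1, -0.077 to 0.033 for Cxcl12, -0.11 to 0.038 for Cxcl14 and -0.048 to 0.058 for Cxcl15. It ran from -0.00018 to 0.14 for Cxcl17, -0.0027 to 0.097 for Cxcl5, -0.0080 to 0.041 for Cxcr1, -0.096 to 0.018 for Cxcr2, -0.024 to 0.14 for Cxcr6 and -0.035 to 0.10 for Xcl1. The cause of each turn was not tested. The number of arrays limits the precision, and the 21 dim members cannot be told from background without detection calls. The same holds for the WT readings of Ccl12 and Ccr2, all under log2 4.50.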

Other observations

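Chemokine relatives outside the naming rule also moved. Of 15 atypical receptors and relatives, 4 rose and 2 fell, with a median of 0.14, beside 7.63% and 9.52% of all genes. Pf4, a CXC chemokine stored in platelets and also made by macrophages, read 8.69, 8.73, 8.72 and 8.74 in the KO hearts, against 7.25, 7.53, 7.35 and 7.33 in the WT hearts. Its KO hearts were close together and all lay above the WT hearts, a rise of 1.35 (SE 0.06, limma adjusted p = 6.74e-07). Cmklr1, a receptor of the attractant chemerin, read 8.13, 8.13, 8.19 and 7.87 in the KO hearts, against 7.14, 7.32, 7.49 and 7.62 in the WT hearts, and rose by 0.68 (limma adjusted p = 0.00124). The macrophage markers rose in the same hearts, and their part was not tested.

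Among 5 receptors that bind chemokines or chemerin without Gi signalling, 2 fell, and Ackr1, Ackr2 and Ackr4 differed by 0.09, 0.07 and 0.20 and did not pass. Ackr3, which scavenges Cxcl12, read 6.86, 6.80, 6.84 and 6.65 in the KO hearts, against 6.97, 7.02, 7.14 and 7.17 in the WT hearts, and fell by 0.29 (limma adjusted p = 0.0137). Ccrl2, which presents chemerin, read 7.64, 7.59, 7.77 and 7.66 in the KO hearts, against 7.90, 7.94, 7.94 and 7.83 in the WT hearts, and fell by 0.24 (limma adjusted p = 0.0142). The groups of both genes did not overlap. Cmtm7 rose by 0.33 (limma adjusted p = 0.00602) and Cklf, chemokine-like factor, by 0.30 (limma adjusted p = 0.0215).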
